A study of Homo sapiens with 4 samples.

Results

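The S100 proteins analysed here are the products of 10 listed genes, S100A2, S100A3, S100A4, S100A6, S100A8, S100A9, S100A10, S100A11, S100A14 and S100A16. They were found by the gene symbol that the platform annotation gives each probe set, with the brightest probe set over the 4 arrays taken for each gene. A probe set was named for 9 of the 10 genes, out of 15870 genes with a named probe set in all. S100A8 had no named probe set and was not analysed here. The probe set of a gene was to be selected on its signal, the measured value in the rule, but each of the 9 genes had 1 probe set, so signal decided nothing. The list itself was drawn up with earlier results of these arrays known, so the adjusted p-values below set each difference against the spread between arrays and are not independent support for the choice of genes.

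Total RNA was measured on 4 Affymetrix arrays of MDA-MB-231 cells, an established human breast carcinoma line, in 2 groups of 2 biological replicates. In the shDROSHA group the cells were transfected with a short hairpin RNA against DROSHA, the nuclear ribonuclease that releases microRNA precursors from their primary transcripts. The control group is labelled shNC, while the design text speaks of mock transfection, so which of these describes the control cells is not settled. Both groups were cells of the same line in the same medium, and neither the promoter of the hairpin nor whether the cells were 1 clone or a pool is given in the sources used here. Beyond the word biological, nothing in the labels says that replicates were separate cultures, and p-values measure only the spread between these arrays, which may be technical.

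S100 proteins are small calcium-binding proteins with a pair of EF-hand loops, most of which work as dimers. In most of them, binding of calcium exposes a surface that docks other proteins, such as annexins, myosins and p53, and several are also secreted and act on cell-surface receptors. Most of the human genes lie together on chromosome 1, beside and within the epidermal differentiation complex, a run of genes for skin barrier proteins. In breast carcinoma cells the family is best known through S100A4, which is linked to motility and metastasis.

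DROSHA mRNA, the check of the labels, was 1.98-fold lower in shDROSHA (8.71 and 8.74, against 9.66 and 9.76 in shNC; log2 signal, limma adjusted p = 3.89e-06). Array medians lay between 7.21 and 7.25. Markers of the line itself moved with the groups. Of 12 mesenchymal markers, all measured, 2 rose in the limma fit on the log2 scale (SPARC by 0.79, AXL by 0.33). Another 3 fell (CDH11 by 0.65, CAV1 by 0.23 and, outside the naming rule, MSN by 0.22). That is 41.7%, against 6.41% of all probe sets and 15.6% of the brightest of 5 bins of signal. The median probe set of the list lay at the 87.7 percentile of signal. VIM, named as the defining marker outside the naming rule, gave 11.82 to 11.88 over the 4 arrays. Of 9 measured luminal and epithelial markers, 1 rose and 1 fell (22.2%, against 6.41% of all probe sets), and 7 did not pass. TFF1 rose by 0.62, on a dim probe set at the 30.9 percentile of signal, and KRT19 fell by 0.35. Among the 7, KRT18 and KRT8 differed by 0.16 and 0.14. The median level of the mesenchymal list was 9.87 and 9.78 in shDROSHA and 9.79 and 9.79 in shNC, and that of the luminal list was 6.90 and 7.02 against 7.11 and 6.99. The part of these changes in the S100 differences was not tested. Levels within the myeloid and keratinocyte lists were mixed. Of 10 measured myeloid markers, 6 lay below the lower quartile of signal, among them the leukocyte gene PTPRC (4.21 to 4.64). Above the median of signal were 2, CD68 (9.31 to 9.55) and TYROBP (7.69 to 8.18). CD68 differed by 0.20 without passing (limma adjusted p = 0.108). Of 9 measured keratinocyte markers, 4 lay below the lower quartile and 2 above the median, KRT16 (7.87 to 8.14) and SFN (9.73 to 9.90). In limma, 0 of the 10 and 0 of the 9 passed, against 6.41% of all probe sets. The median probe sets of these lists lay at the 23.3 and 26.3 percentile of signal, in a bin where 1.94% passed. The median level of the myeloid list was 5.66 and 5.97 in shDROSHA and 5.85 and 5.56 in shNC, and that of the keratinocyte list was 5.94 and 5.95 against 5.92 and 5.94. All samples are labelled as the same line, so these levels describe mRNAs of the cultures. The array gives no point at 0, so absence of these mRNAs cannot be read from dim values. In bulk RNA, fewer cells with an mRNA and less of it per cell cannot be told apart.

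The 3 genes that rose are neighbours, and their upstream sequences are shown because the genes moved in the same direction, with that of S100A6, a gene of the same run that did not pass the test, for comparison. Each is the 250 bases before an annotated start, on the minus strand of GRCh38.p14, from RefSeq, written 5′ to 3′. Capitals mark matches on either strand to 4 short motifs. The first is the core promoter element known as the TATA box, searched as TATAAA. The second is the binding site of AP-1, searched as TGANTCA, where N stands for any base. The third is the GC box bound by SP1, searched as GGGCGG. The fourth is the palindrome bound by STAT proteins, searched as TTCNNNGAA. S100A2 has 2 annotated starts, and the outermost is shown.
S100A4, chr1:153545807-153546056: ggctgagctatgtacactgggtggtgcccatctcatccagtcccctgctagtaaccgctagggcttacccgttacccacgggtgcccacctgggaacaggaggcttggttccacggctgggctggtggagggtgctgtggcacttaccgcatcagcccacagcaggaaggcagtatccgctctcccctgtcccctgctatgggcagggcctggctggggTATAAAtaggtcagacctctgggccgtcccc
S100A3, chr1:153549259-153549508: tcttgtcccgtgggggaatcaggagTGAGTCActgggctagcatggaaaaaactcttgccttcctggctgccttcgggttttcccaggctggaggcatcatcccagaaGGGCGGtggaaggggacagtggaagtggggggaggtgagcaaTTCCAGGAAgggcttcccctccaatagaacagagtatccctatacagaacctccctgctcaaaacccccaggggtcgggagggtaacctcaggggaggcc
S100A2, chr1:153565845-153566094: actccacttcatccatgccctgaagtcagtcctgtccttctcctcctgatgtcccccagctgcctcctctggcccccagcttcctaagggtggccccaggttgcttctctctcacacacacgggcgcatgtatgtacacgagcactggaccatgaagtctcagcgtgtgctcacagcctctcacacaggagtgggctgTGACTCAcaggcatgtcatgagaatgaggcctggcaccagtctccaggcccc
S100A6, chr1:153535992-153536241: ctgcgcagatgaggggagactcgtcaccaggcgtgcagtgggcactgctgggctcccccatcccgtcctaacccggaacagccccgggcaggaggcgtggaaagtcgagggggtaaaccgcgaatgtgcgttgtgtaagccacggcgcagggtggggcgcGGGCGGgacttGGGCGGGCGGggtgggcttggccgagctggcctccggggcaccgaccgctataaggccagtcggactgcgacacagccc

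No one of these motifs was found in all 4 windows. S100A4 holds a TATA box that begins 31 bases before the start, a match found in 11.1% of 27303 upstream windows of this length. The S100A3 window holds an AP-1 match (6.6% of windows) 225 bases before its start, a STAT match (6.78%) at 100 bases and a GC box (42.3%) at 142 bases. S100A2 holds an AP-1 match, 52 bases before the outermost start, while the window of its other annotated start holds none of the 4 motifs. S100A6 holds 3 GC boxes, at 90, 79 and 75 bases. The E-box motif CANNTG, left in lower case, was found once each upstream of S100A4, S100A2 and S100A6 and not upstream of S100A3, against 62.2% of all windows. The windows of S100A4, S100A3 and S100A2 hold 7, 4 and 4 CG dinucleotides, below the median of 11 over all windows, and that of S100A6 holds 24. Low CG counts were not particular to the genes that rose: the windows of S100A9 and S100A14, which did not pass the test, hold 4 each. These matches describe the sequence and were not tested as binding sites.

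S100A4, S100A3 and S100A2 rose in shDROSHA, and the other 6 measured genes did not pass the test. The question of the comparison is which mRNAs differ in level when DROSHA is depleted. The differences of the 3 were between 0.35 and 0.62 on the log2 scale, while those of the other 6 lay between -0.09 and 0.10.

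S100A4, which binds non-muscle myosin heavy chains and is linked to cell motility, gave log2 signals of 8.24 and 8.28 in shDROSHA and 7.55 and 7.71 in shNC. Both shDROSHA arrays lay above both controls, and the group means were 8.26 ± 0.0286 and 7.63 ± 0.108 (SD, n = 2 each). The gene was 1.54-fold higher, a log2 difference of 0.62 (SE 0.102, 95% interval 0.40 to 0.84, limma adjusted p = 0.00235).

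S100A3, a zinc- and calcium-binding protein best known from the hair cuticle, gave 9.17 and 9.26 in shDROSHA and 8.88 and 8.84 in shNC. The groups did not overlap, and the means were 9.21 ± 0.0614 and 8.86 ± 0.0261 (SD, n = 2 each). Its log2 difference was 0.35 (SE 0.0757, 95% interval 0.19 to 0.52, limma adjusted p = 0.0123), or 1.28-fold.

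S100A2, a mainly nuclear member that binds p53, gave 7.64 and 7.45 in shDROSHA and 7.20 and 6.95 in shNC. Its arrays were the most spread of the 3, with SDs of 0.135 and 0.179 (n = 2 each), but again both shDROSHA values lay above both controls. The log2 difference was 0.47 (SE 0.131, 95% interval 0.19 to 0.75, limma adjusted p = 0.047), or 1.39-fold, just inside the threshold of 0.05.

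**Figure D1:**
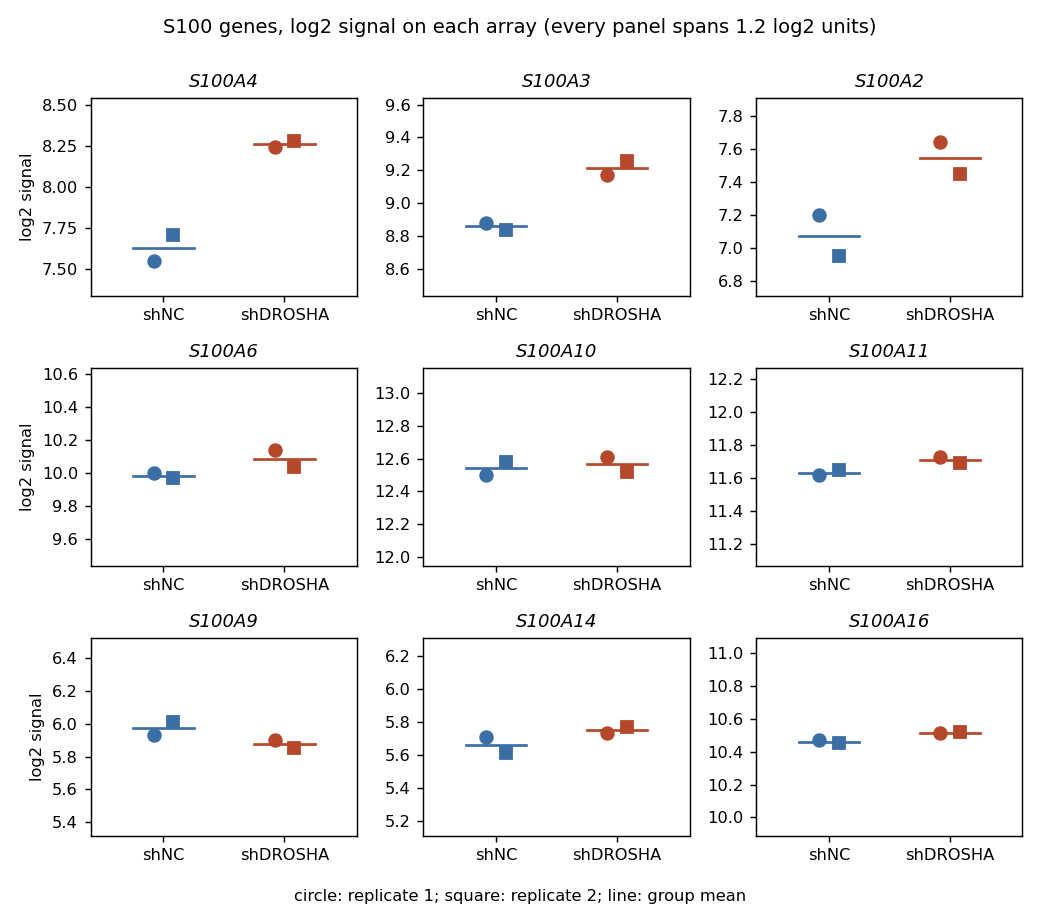
Log2 signal of the 9 S100 genes on each array, with shNC in blue, shDROSHA in red, circles for replicate 1, squares for replicate 2 and a line at each group mean; every panel spans the same range of log2 units around the gene's own mean. The groups do not overlap for 8 of the 9 genes, against 47.8% of all probe sets, and S100A10 is the gene whose groups overlap. Among the 8 are S100A4 (7.55 and 7.71 against 8.24 and 8.28), S100A3 and S100A2.

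These calls rest on how the spread was modelled. With 1 constant prior variance for all probe sets, in place of one that follows signal level, adjusted p was 0.167 for S100A4, 0.214 for S100A3 and 0.238 for S100A2. Thus 0 of the 9 S100 genes passed, and 3 had an unadjusted p under 0.05 in limma. Over all probe sets, an unadjusted p under 0.05 was found for 19.3% in the trended fit and for 2774 of 18603 with the constant prior. The fit with the constant prior passed 1 probe set of the whole array (0.00538%). DROSHA, the depleted gene, did not pass that fit either (limma adjusted p = 0.0843). With 1 array left out, S100A4 passed each time (log2 difference 0.55 to 0.70). S100A3 did not pass without shNC replicate 1 (adjusted p = 0.0505) or shNC replicate 2 (0.068), and S100A2 did not pass without shDROSHA replicate 1 (0.104), shNC replicate 1 (0.0525) or shNC replicate 2 (0.29). The S100A2 difference ranged from 0.34 to 0.60 and the S100A3 difference from 0.31 to 0.40, all above 0. For 1 gene taken alone, the smallest two-sided p of an exact permutation test on 2 arrays against 2 is 0.333, and every call therefore uses spread pooled over probe sets.

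**Figure D2:**
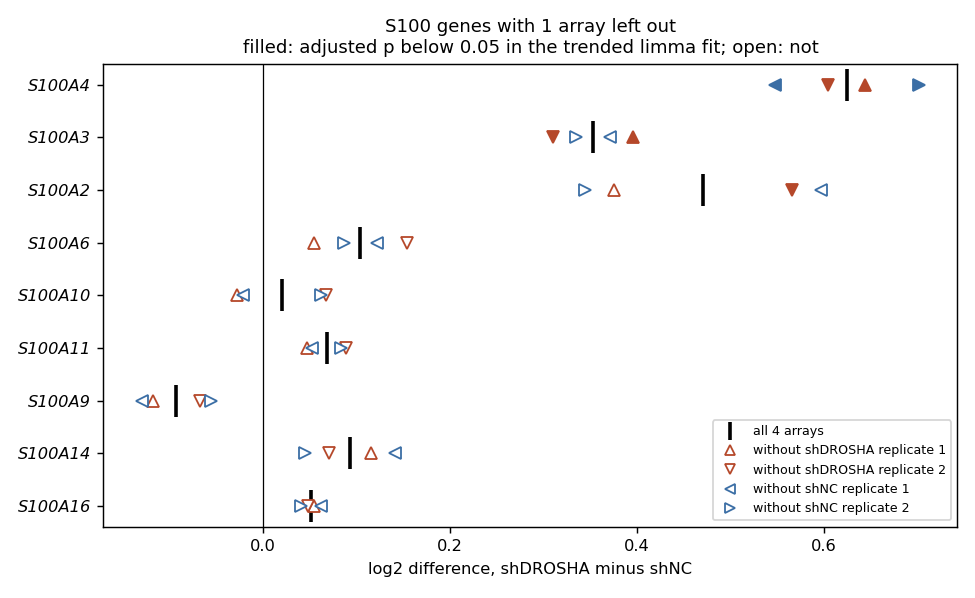
Log2 difference, shDROSHA minus shNC, of each S100 gene with all 4 arrays (black bar) and with 1 array left out (triangles; red for a missing shDROSHA array, blue for a missing shNC array; filled where adjusted p was below 0.05). S100A4 is filled in every position from 0.55 to 0.70, S100A2 in 1 of 4, and S100A10 falls on both sides of 0.

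S100A6, S100A10 and S100A11 are abundant intracellular members that work with annexins and other partners, and their probe sets were at or above the 90.0 percentile of signal. S100A6, calcyclin, gave 10.14 and 10.04 in shDROSHA and 10.00 and 9.97 in shNC, a log2 difference of 0.10 (95% interval -0.03 to 0.24, limma adjusted p = 0.395). The groups did not overlap, but the lower shDROSHA array lay close to both controls. S100A11, a ligand of annexin A1, gave 11.73 and 11.69 against 11.62 and 11.65, a difference of 0.07 (interval -0.02 to 0.16, adjusted p = 0.417).

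S100A10, also called p11, has lost calcium binding and forms a complex with annexin A2 at the plasma membrane. It gave 12.61 and 12.52 in shDROSHA and 12.50 and 12.58 in shNC, with overlapping groups. Its difference was 0.02 (interval -0.07 to 0.11, adjusted p = 0.865), and it was -0.03 without shDROSHA replicate 1 and -0.02 without shNC replicate 1. Its interval is among the narrowest of the 9 and ends below the S100A4, S100A3 and S100A2 intervals, although the differences between genes were not tested.

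S100A16, a widely expressed member, gave 10.51 and 10.52 in shDROSHA and 10.47 and 10.45 in shNC. The arrays of a group nearly coincided, and the difference was 0.05 (interval -0.06 to 0.16, limma adjusted p = 0.676). S100A14, which is found mainly in epithelial cells, gave 5.73 and 5.77 against 5.71 and 5.61, a difference of 0.09 (interval -0.26 to 0.45, adjusted p = 0.836). S100A9, which with S100A8 forms the inflammatory protein calprotectin, was the 1 gene with a lower mean in shDROSHA, at 5.90 and 5.85 against 5.93 and 6.01 (difference -0.09, interval -0.43 to 0.25, adjusted p = 0.829). The probe sets of S100A9 and S100A14 stood at the 26.1 and 22.3 percentile of signal. The residual SD of all probe sets in that bin of signal was 0.178, and the wide intervals draw on this pooled spread. Their own SDs were smaller, 0.0359 and 0.0518 for S100A9 and 0.0312 and 0.0681 for S100A14 (n = 2 each). Changes inside these intervals are not excluded.

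Read against the array as a whole, 3 of the 9 genes (33.3%) passed, 3 higher and 0 lower, where 6.41% of 18603 probe sets passed, 3.12% higher and 3.28% lower. The share that passed grew with signal: when probe sets were ranked by signal and split into 5 bins, it was 0.833% in the dimmest and 15.6% in the brightest. S100A2 lay in the third bin (4.7%) and S100A3 and S100A4 in the fourth (8.92%). S100A6, S100A10, S100A11 and S100A16, which did not pass, lay in the brightest. The mean was higher in shDROSHA for 8 of the 9 genes, against 50.2% of all probe sets, and the groups did not overlap for 8 of the 9, against 47.8%. The median difference was 0.093 for the 9 genes and 0.001 for all probe sets. Since these genes were listed with such results known, the shares describe them and test nothing.

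**Figure D3:**
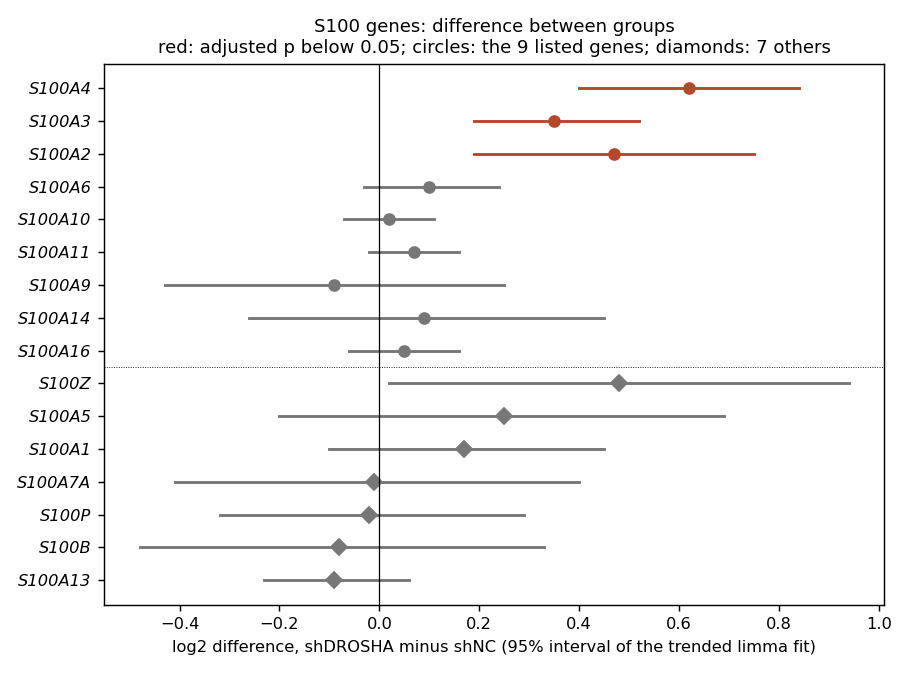
Log2 difference, shDROSHA minus shNC, with the 95% interval of the trended limma fit, for the 9 listed S100 genes (circles, above the dotted line) and 7 other S100 genes (diamonds); red marks adjusted p below 0.05. S100A4, S100A2 and S100A3 lie clear of 0, and S100A10, at 0.02, has an interval from -0.07 to 0.11.

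The other S100 genes give the rest of the family. Of 11 further genes, 7 had a named probe set, and 0 passed the limma test, against 6.41% of all probe sets. Their median probe set lay at the 10.3 percentile of signal, in the dimmest of 5 bins, where 0.833% passed. The constant prior also passed 0 of the 7. Against 19.3% of all probe sets, 1 of the 7 had an unadjusted limma p under 0.05. That was S100Z, at 4.46 and 4.42 in shDROSHA against 4.21 and 3.71 in shNC (difference 0.48, interval 0.02 to 0.94, adjusted p = 0.239). Its probe set was at the 0.731 percentile of signal, and 1 low control array widens its spread. S100A13, a member that takes part in the export of growth factors, was bright, with 9.56 and 9.51 against 9.64 and 9.60 (difference -0.09, interval -0.23 to 0.06). S100A1, known from heart muscle, overlapped between groups (difference 0.17, interval -0.10 to 0.45), as did S100P (-0.02, interval -0.32 to 0.29), S100A5 (0.25, interval -0.20 to 0.69) and S100A7A (-0.01, interval -0.41 to 0.40). S100B, the glial member, differed by -0.08 (interval -0.48 to 0.33). The median of the 7 was -0.007, and 4 of them lay below the lower quartile of signal.

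S100A4, S100A3 and S100A2 are neighbours in the RefSeq gene order of GRCh38.p14, a feature that the rule did not use. From S100A6 the order runs S100A5, S100A4, LOC101928034, S100A3, S100A2, S100A16, S100A14, S100A13 and S100A1. All of these have a probe set, and all lie on the minus strand except LOC101928034 and S100A1. LOC101928034, a long non-coding RNA gene whose span overlaps S100A4 and S100A3 on the opposite strand, gave 6.17 and 6.27 in shDROSHA and 6.13 and 6.38 in shNC. Its groups overlapped and its difference was -0.04 (interval -0.37 to 0.30, limma adjusted p = 0.942). The genes on either side differed less than S100A4: S100A5 by 0.25, with overlapping groups and a span that overlaps that of S100A4, and S100A16 by 0.05. Whether the differences of neighbouring genes differ from each other was not tested, and probe sequences, which could show whether S100A5 and S100A4 share signal, were not used here.

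Over the whole stretch from S100A10 to S100A1, 51 genes had a probe set, of which 4 rose and 0 fell, against 3.12% and 3.28% of all probe sets. The 3 listed S100 genes are among the 4, and without them 1 of the 42 genes not listed rose, which is no more than the overall share. That gene was FLG, which encodes filaggrin, a skin barrier protein that carries an S100-like start, at 4.99 and 5.01 in shDROSHA and 4.04 and 4.36 in shNC (difference 0.80, SE 0.196, limma adjusted p = 0.0263). Its probe set lay at the 5.97 percentile of signal. Those 42 genes had a median difference of 0.08, with values from -0.33 to 0.80. Of the 10 measured genes on the S100A10 side, 0 passed, and of the 10 on the S100A1 side 1 fell, INTS3, a subunit of the Integrator complex (-0.32, adjusted p = 0.036).

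**Figure D4:**
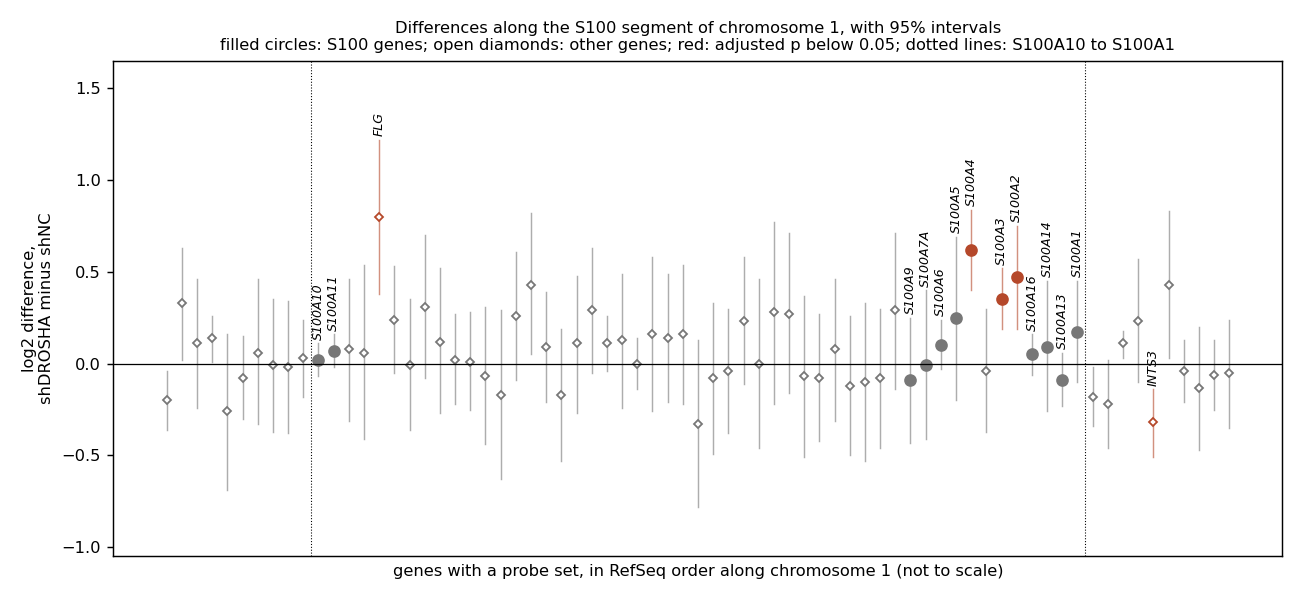
Log2 difference, shDROSHA minus shNC, with 95% intervals for 71 genes in RefSeq order along chromosome 1, from 10 genes before S100A10 to 10 after S100A1 (dotted lines); S100 genes are filled circles, others open diamonds, and red marks adjusted p below 0.05. S100A4 (0.62), S100A3 (0.35) and S100A2 (0.47) stand next to each other with LOC101928034 (-0.04) between the first pair.

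Most partners of S100 proteins did not pass the test, and neither did most probe sets of the array. Of 19 measured annexins and scaffold partners, 1 rose and 2 fell (15.8%, against 6.41% of all probe sets and 15.6% of the brightest bin), with a median of -0.009. The list is bright, with its median probe set at the 83.3 percentile of signal, and its share is near that of the brightest bin. ANXA3 rose by 0.29 (SE 0.0682), while ANXA11, which binds S100A6, fell by 0.34 (SE 0.0547) and AHNAK2, a giant scaffold protein, fell by 0.58 (SE 0.0945). ANXA1, the partner of S100A11, gave 12.86 and 12.86 against 12.77 and 12.72 and did not pass (difference 0.11, limma adjusted p = 0.0639). Named for their known binding to S100A10, S100A4 and S100A6, and outside the naming rule, ANXA2 differed by -0.01 (interval -0.08 to 0.06), MYH9 by -0.10 (interval -0.25 to 0.05) and CACYBP by 0.04 (interval -0.05 to 0.14).

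Of 26 measured cytoskeletal and other targets, 2 rose and 2 fell, with a median of -0.003. That is 15.4%, again near the 15.6% of the brightest bin, and the median probe set lay at the 85.1 percentile of signal. The actin-binding genes TPM1 and TAGLN2 rose by 0.30 (SE 0.0707) and 0.17 (SE 0.041). MYH10, a non-muscle myosin heavy chain, fell by 0.39 (SE 0.0689), and CTSL, a lysosomal protease, fell by 0.21 (SE 0.0565). Of 16 measured receptors for secreted S100 proteins, 0 passed the limma test, against 6.41% of all probe sets. The median probe set of the list lay at the 47.9 percentile of signal, in a bin where 4.7% passed. The constant prior also passed 0, and it passed only 1 probe set of the whole array. An unadjusted limma p under 0.05 was found for 3 of the 16, against 19.3% of all probe sets. AGER, the receptor RAGE, gave 6.27 and 6.68 in shDROSHA and 6.87 and 6.73 in shNC (difference -0.32, adjusted p = 0.292), and TLR4 gave 7.64 and 7.81 against 7.54 and 7.42 (0.25, adjusted p = 0.257). BSG and ALCAM differed by -0.17 and 0.16 (adjusted p = 0.0728 and 0.0922).

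The calmodulins and other EF-hand calcium sensors, which share the calcium-binding fold with the S100 proteins, had 1 gene that rose and 2 that fell among 41 measured (7.32% passed, near the 6.41% of all probe sets; median 0.007). VSNL1, a neuronal calcium sensor, gave 7.29 and 7.03 in shDROSHA and 7.83 and 7.92 in shNC, and fell by 0.72 (SE 0.121). HPCAL1, of the same sensor family, fell by 0.34 (SE 0.0731), and RCN1, a calcium-binding protein of the endoplasmic reticulum, rose by 0.20 (SE 0.0499). CHP1, a calcineurin-like sensor, differed by -0.16 and did not pass (adjusted p = 0.0512).

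**Figure D5:**
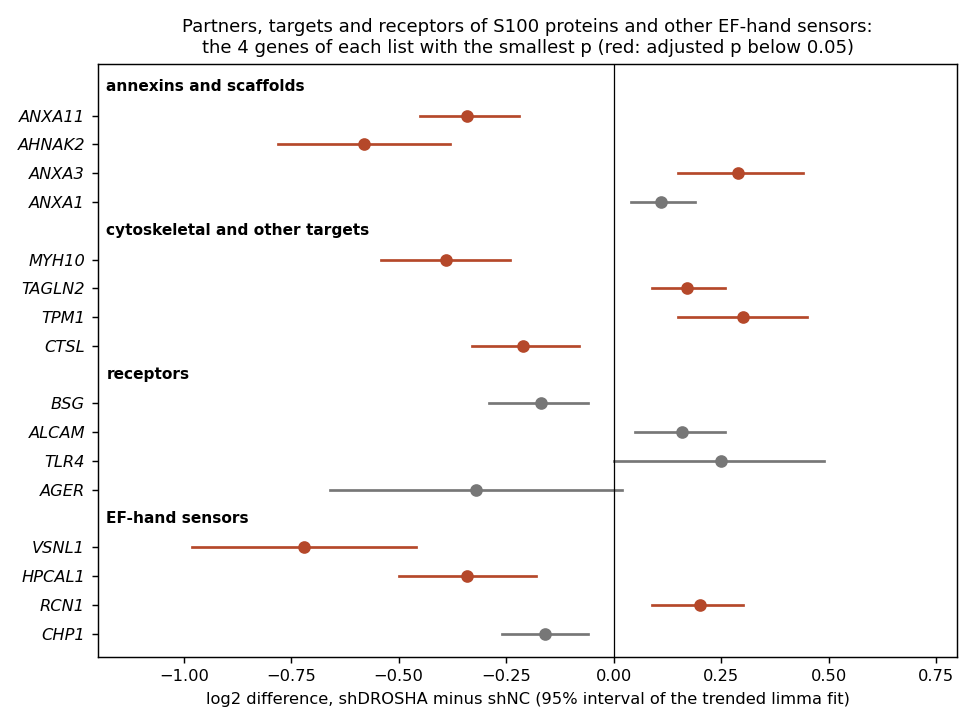
Log2 difference, shDROSHA minus shNC, with 95% intervals for the 4 genes with the smallest p in each of 4 lists; red marks adjusted p below 0.05. Red points lie on both sides of 0 among annexins and scaffolds, targets and EF-hand sensors, from VSNL1 at -0.72 to TPM1 at 0.30, and the 4 receptors are grey.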

How the data were processed

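Each array gives 1 log2 signal per probe set, deposited by the authors after RMA (background correction, quantile normalization and probe-set summary), per the submitters' processing notes. Software version and genome build: not given in the sources used here. RMA equalises the distributions of arrays, so a global shift in mRNA would be hidden, and it understates the fold change of dim genes. Of 18603 probe sets, 15886 had 1 gene symbol, all matched by Entrez identifier to RefSeq (GRCh38.p14).

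limma 3.58.1 in R 4.3.3 (lmFit, eBayes with an intensity trend) compared the groups over all probe sets, with Benjamini-Hochberg adjustment and a threshold of 0.05. The trend was chosen because the residual SD falls from 0.213 in the dimmest of 5 bins to 0.0672 in the brightest. SEs and intervals come from this fit, and the number of arrays limits its precision. On simulated data it recovered 62.8% of log2 changes of 0.5 and 100% of changes of 1, with 9 false calls. The simulated spread was itself drawn from the signal trend, so the simulation cannot test the choice of the trend. The members and lists were chosen with earlier results of these data known, and so was the trend. Genes named are all S100 genes measured, DROSHA and up to 4 of each other list with the smallest p. The 5 genes nearest in profile to the S100 gene with the largest difference are also named. Outside this rule, VIM, MSN, TYROBP and SFN are named as markers, and ANXA2, MYH9 and CACYBP as partners. LOC101928034 and INTS3 are named for their place on chromosome 1. Alternatives covered the prior, filters, normalization, probe sets, thresholds, the replicate block and leaving out arrays. Motifs were searched by exact match.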

Additional observations from a re-analysis of the deposited data

How the results depend on the processing

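The number of S100 genes past the threshold, 3, became 0 with a constant prior variance (3 at unadjusted p under 0.05 in limma), 1 at 1.5-fold or more and 1 to 3 without 1 array, the count being 1 when either shNC array was missing. The number of probe sets past it, 1192, became 1 with a constant prior, 1824 at adjusted p 0.10, 245 at 1.5-fold or more, and 535 to 1949 without 1 array. Leaving out shNC replicate 1 gave 535, leaving out shNC replicate 2 gave 748 and leaving out shDROSHA replicate 1 gave 1949, where the single array left in a group takes its spread from the other group. The threshold and fold settings change the count by construction, and the cause of the other changes was not tested. With the constant prior, 2774 of 18603 probe sets had an unadjusted limma p under 0.05. The S100A10 difference ranged from -0.0277 to 0.0676 without 1 array, and turned negative without shDROSHA replicate 1 (-0.0277) and without shNC replicate 1 (-0.0217). Of 114 single-gene results under an alternative, 104 kept direction and side of the threshold, 8 lost the call and 2 reversed. Most of the 104 belong to the 6 genes that had no call to lose, and all 8 losses fell on S100A4, S100A3 and S100A2. Each S100 gene had 1 probe set, so the settings on the choice of probe set could not move its difference. The settings on the prior, the filters and the replicate block also left each difference unchanged. Direction could therefore change only with normalization or a missing array. Centring the arrays on their medians made 62.5% of the calls higher, against 48.7% as deposited, and the count of S100 genes was 3. With the replicate block, 3 S100 genes and 1391 probe sets passed; the deviations of same-numbered arrays correlated at -0.0218, so the numbers were not taken as pairs. Without probe sets below the median signal, S100A9 and S100A14 give no value.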

Other observations

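Genes reported to induce S100 genes gave no call. Of 20 measured transcription factors, 0 passed the trended limma fit, against 6.41% of all probe sets. The median probe set of the list lay at the 39.7 percentile of signal, in a bin where 1.94% passed. The constant prior also passed 0, and it passed only 1 probe set of the whole array. In the trended fit 2 of the 20 had an unadjusted p under 0.05, against 19.3% of all probe sets. The median difference of the 20 was -0.005. SATB1, a chromatin organiser, gave 6.24 and 6.40 in shDROSHA and 6.69 and 6.92 in shNC (difference -0.48, interval -0.80 to -0.16, adjusted p = 0.0738). STAT3 differed by 0.17 (adjusted p = 0.283), PRDM1 by -0.49 (adjusted p = 0.241) and GRHL3 by 0.37 (adjusted p = 0.336), the latter pair on dim probe sets at the 4.42 and 12.4 percentile of signal.

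Among 8247 genes at or above the median signal, the 5 whose 4 array values, centred on the gene's mean, lay nearest to those of S100A4 were PHTF2, TAF4B, FRMD3, MTMR2 and ERGIC2, at Euclidean distances of 0.0537 to 0.0962. They were higher in shDROSHA by 0.54 to 0.62. The likeness covers 4 arrays of 2 groups and is a description only.

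Of the other genes of the epidermal differentiation complex, 30 were measured and 0 passed the limma fit, against 6.41% of all probe sets. The median probe set of the list lay at the 23.1 percentile of signal, in a bin where 1.94% passed. The constant prior also passed 0. An unadjusted limma p under 0.05 was found for 1 of the 30, against 19.3% of all probe sets. It was LCE2A, with a difference of 0.43 and an adjusted p of 0.188. Their median difference was 0.090, and 16 of the 30 probe sets lay below the lower quartile of signal. Among the S100-fused proteins of the complex, CRNN differed by 0.24 (adjusted p = 0.375), TCHHL1 by 0.08 and RPTN by 0.06.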
